A study of Mus musculus with 157 samples.

Results

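The GTPases of immunity-associated proteins (Gimap) form a family of small GTP-binding proteins made mainly by lymphocytes, where most sit on intracellular membranes and act in cell survival and development. In mouse their genes lie side by side on chromosome 6, and loss of Gimap5 or Gimap1 depletes peripheral lymphocytes. Several members were found through their roles in T cells, and Gimap1 is needed by B cells as well.

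All 8 Gimap genes of the count table were followed, out of 19600 genes: Gimap1, Gimap3, Gimap4, Gimap5, Gimap6, Gimap7, Gimap8 and Gimap9. They were taken by name, and the family was picked because Gimap5 was lower after etoposide, so their values in that comparison are a description and carry no test. All 8 passed the expression filter together with 12755 genes in all, and all 8 averaged at least 100 counts per gradient, as 8000 genes did.

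The cells were splenic B cells of C57BL/6Babr mice, cultured with the mitogen lipopolysaccharide (LPS) at 10 µg/ml in every group. The LPS group had 48 h of LPS alone. The LPS+ET group had 48 h of LPS and then etoposide, which traps topoisomerase II and leaves double-strand breaks, at 20 µM for 4 h. The LPS+ET+KU group had, per the labels, 47 h of LPS and then KU55933 (also spelled KU59933 in the labels), an inhibitor of the DNA damage kinase ATM, at 10 µM for 1 h ahead of the same etoposide dose. Cytoplasm of cycloheximide-treated cells was spread on sucrose gradients, and fractions 4 to 7 (monosomes), 8 to 10 (light polysomes) and 11 to 16 (heavy polysomes) were each sequenced from the 3′ ends of their mRNA. Each treatment had 4 gradients of 13 fractions. They are named by a code in the column names (LUL15, LUL16, LUL17 and LUL18), and lists of 4 values follow that order. The code is called the library pool here, though the labels do not say what it stands for. The study describes the gradients as biological replicates, and the labels give neither the age nor the number of mice behind each.

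The 156 libraries of fractions 4 to 16 held 14724 to 4170688 counts (median 811932), and the gradients 6404957 to 21449781. The smallest was LPS+ET of pool LUL16, which also stood apart in shape. It had 30.4% of its counts in heavy polysomes against 60.5 to 68.2% in the other 3 LPS+ET gradients, 52.3 to 62.4% in LPS and 37.6 to 55.5% in LPS+ET+KU. Equal RNA concentrations went into the libraries, so these totals do not measure the mRNA in a fraction. As a B cell marker, Ighm was at 9243 to 18246 counts per 1000000 (CPM) in LPS. Pax5, another B cell marker, was at only 1.08 to 1.93 CPM there, so a low level alone does not show that a cell type is absent. Of 15 T cell markers, 12 were in the table and 8 passed the expression filter. The receptor chains Cd3d, Cd3e and Cd3g stayed at or below 1.61, 0.432 and 0.402 CPM in every gradient. The receptor chains Trbc1 and Trbc2 reached 1.44 and 5.17 CPM in LPS, and Lat and Cd28 reached 4.90 and 4.50 CPM with the inhibitor. Lck, a kinase that B cells can make too, gave most of the summed T cell list, which ran from 136 to 165 CPM in LPS, 122 to 305 after etoposide and 95.7 to 387 with the inhibitor. None of these T cell markers passed the edgeR test in any of the treatment comparisons. The natural killer list summed to 0.325 to 4.57 CPM over the 12 gradients.

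Where each Gimap row was counted decides what it measures, because every tag marks a poly(A) site. The cluster spans chr6:48647234-48770851 (GRCm38, GENCODE release M21). In 7 of the 8 genes the counted sites lay 0 to 61 bases from the annotated end of one of the gene's own protein-coding transcripts. Gimap5 was the exception, with 4 sites found and 2 counted, neither at the end of its coding transcript Gimap5-201 at position 48754210. One site, at 48747485, held 12497 counts or 57.8% of the row, and it is the annotated last base of Gimap5-203, a noncoding processed transcript that ends inside an intron of the coding one. The other, at 48756366, held 9141 counts or 42.2% of the row and lay 2156 bases past the coding end, 2 bases short of the end of the lincRNA 4833403J16Rik. That lincRNA had no row of its own. The first site, 1.288 kb into the gene, lies before the annotated coding sequence, which starts at 4.263 kb. Over all libraries, 57.8% of the row thus came from transcripts that ended before it. Whether transcripts at the second site encode Gimap5 cannot be told from these tags. The table gives no counts per site and library, so the 2 sites cannot be separated in any Gimap5 value here.

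**Figure D1:**
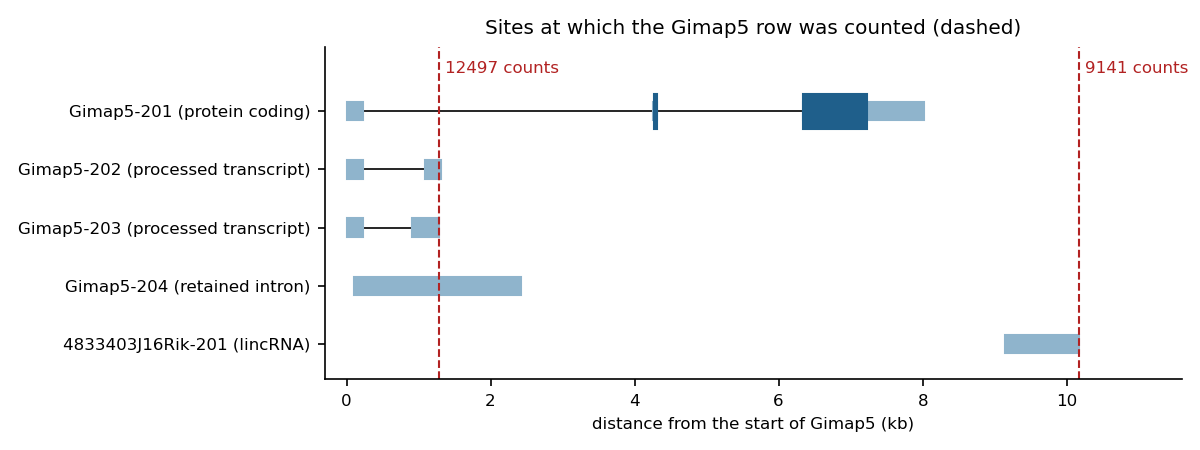
Transcripts at Gimap5 by distance in kb from the start of the gene, with coding exons tall and dark, other exons pale, and the 2 counted poly(A) sites dashed. The sites with 12497 and 9141 counts match the ends of a noncoding Gimap5 transcript and of the lincRNA 4833403J16Rik, not the end of the coding transcript.

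The last 30 bases of both noncoding transcripts, from the GENCODE sequences on the plus strand, are shown because they mark what the Gimap5 row counted. Capitals mark the poly(A) signal AATAAA, which starts 22 bases before the end of the first and 25 bases before the end of the second.
Gimap5-203, chr6:48747456-48747485: cttggtaaAATAAAttgtcctgataagctg
4833403J16Rik-201, chr6:48756339-48756368: tcctgAATAAActtcatgcgatattgcatc
The last 50 bases of the coding transcript Gimap5-201 held no AATAAA.

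Gimap1 carried a related caution. Its deposited locus, chr6:48718607-48746196, also covers Gimap7 and part of the readthrough gene Gm28053. Introns of Gm28053 also hold the Gimap5 site at 48747485. The Gimap1 counts came from 1 site, 61 bases from the end of the coding transcript Gimap1-201. The GENCODE span of Gimap1 is chr6:48739054-48743795. Gimap9 was counted at 2 sites, with 63.6% and 36.4% of its counts, 0 and 4 bases from annotated ends of coding transcripts.

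Gimap4 was the most abundant member on ribosomes in LPS and Gimap8 the least. Levels are sums of fractions 4 to 16 in CPM with TMM scaling. Since 3′ sequencing gives 1 tag per mRNA whatever its length, they were not divided by length. Gimap4 made up 56.1 ± 2.50% (SD, n = 4) of the counts of the 8 genes in LPS, 45.6 ± 3.02% after etoposide and 44.7 ± 4.69% with the inhibitor as well. The order of mean levels in LPS was Gimap4, Gimap3, Gimap6, Gimap5, Gimap1, Gimap7, Gimap9 and Gimap8. Within it, the ranges of the 4 gradients overlapped between Gimap3 and Gimap6 and among Gimap1, Gimap7 and Gimap9.

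After etoposide all 8 mean levels were lower than in LPS. The median log2 change of the 8 was -1.21, beside 0.03 over the 12755 genes tested. Pool by pool, 7 of 8 genes were lower in all 4, which was not counted over all genes. The 4 LPS+ET gradients lay below all 4 LPS gradients for 6 of 8 members, and for 12.6% of all genes. By edgeR, 4 of 8 (Gimap3, Gimap4, Gimap5 and Gimap6) had an adjusted p under 0.01 for a lower level, a call that 4.81% of all genes received (7.88% were called higher). With the library pool as a block Gimap1 and Gimap7 had one too, for 6 of 8, while the calls over all genes in either direction went from 1618 to 3403. Over all genes the calls split into 613 lower and 1005 higher, or 407 and 1140 with library totals in place of TMM scaling. Since this contrast chose the family, nothing is read from those counts. In bulk libraries like these, fewer cells that hold an mRNA and less of it per cell cannot be told apart.

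Gimap4, a modulator of T cell death, was at 1673, 1794, 1517 and 1804 CPM in LPS. Its LPS+ET levels were 421, 519, 353 and 404 CPM, and it was at 476, 758, 492 and 484 CPM with the inhibitor. Both etoposide groups lay wholly below LPS and overlapped each other. The mean in LPS+ET was 25% of that in LPS, a log2 change of -2.0 ± 0.20 (SE).

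Gimap3, the closest relative of Gimap5 and like it a membrane-anchored survival factor, was at 522, 689.8, 361 and 596 CPM in LPS. Etoposide gradients were at 93.0, 163, 82.7 and 107 CPM, and those with the inhibitor at 111, 217, 97.7 and 182 CPM. Every gradient with etoposide lay below every LPS gradient. Its log2 change of -2.29 ± 0.31 (SE) was the largest of the 8, and its mean in LPS+ET was 20.5% of that in LPS.

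Loss of Gimap5, a membrane protein of lysosomes, shortens the life of T cells. The Gimap5 row, counted at the 2 sites above, was at 201, 197, 189 and 184 CPM in LPS. The LPS+ET gradients were at 72.8, 145, 60.7 and 63.2 CPM and the LPS+ET+KU gradients at 114, 165, 112 and 128 CPM. LPS was tight and lay above both other groups, and the LPS+ET gradient of pool LUL16 stood apart above the others of its group, inside the range of LPS+ET+KU. The log2 change of LPS+ET from LPS was -1.17 ± 0.26 (SE), and without that gradient -1.56 ± 0.17, with a mean of 65.6 ± 6.40 CPM (SD, n = 3). When each fraction was given equal weight, pool LUL16 was still the highest LPS+ET gradient for Gimap5, at 139 against 66.6 to 95.1 CPM.

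Gimap6, which binds a Gabarap protein and acts in autophagy, was at 250.2, 370.3, 274 and 392 CPM in LPS. The LPS+ET levels were 104, 101, 163 and 172 CPM, and with the inhibitor it was at 161, 217, 236 and 308 CPM. LPS+ET lay wholly below LPS, while LPS+ET+KU overlapped both. The log2 change of LPS+ET from LPS was -1.25 ± 0.25 (SE).

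Gimap7, whose GTPase activity needs pairing of 2 molecules, was at 48.8, 68.8, 77.0 and 125 CPM in LPS. Etoposide gradients stood at 14.9, 27.9, 42.6 and 47.8 CPM, and those with the inhibitor at 11.0, 42.7, 34.3 and 28.8 CPM. Both etoposide groups lay below LPS, by a narrow gap between 47.8 and 48.8 CPM. The log2 change of LPS+ET from LPS was -1.26 ± 0.43 (SE).

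The other members had smaller changes. Gimap9 was at 72.8, 82.4, 62.5 and 68.3 CPM in LPS, 44.9, 47.6, 56.2 and 57.3 CPM after etoposide and 26.7, 50.9, 48.6 and 44.9 CPM with the inhibitor, again with both etoposide groups below LPS, and its log2 change of LPS+ET from LPS was -0.47 ± 0.20 (SE). Gimap1, which mature B and T cells need, had LPS, LPS+ET and LPS+ET+KU means of 99.7 ± 34.7, 69.6 ± 25.1 and 79.8 ± 30.5 CPM (SD, n = 4), and all 3 groups overlapped. Gimap8, the largest protein of the family with several GTPase domains, had means of 30.7 ± 11.9, 18.9 ± 3.76 and 21.2 ± 5.39 CPM (SD, n = 4), which overlapped as well. The log2 changes of LPS+ET from LPS were -0.52 ± 0.34 (SE) for Gimap1 and -0.70 ± 0.28 (SE) for Gimap8. With equal weight per fraction, Gimap8 differed by -0.34 ± 0.29 and Gimap9 by -0.24 ± 0.20 (SE).

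**Figure D2:**
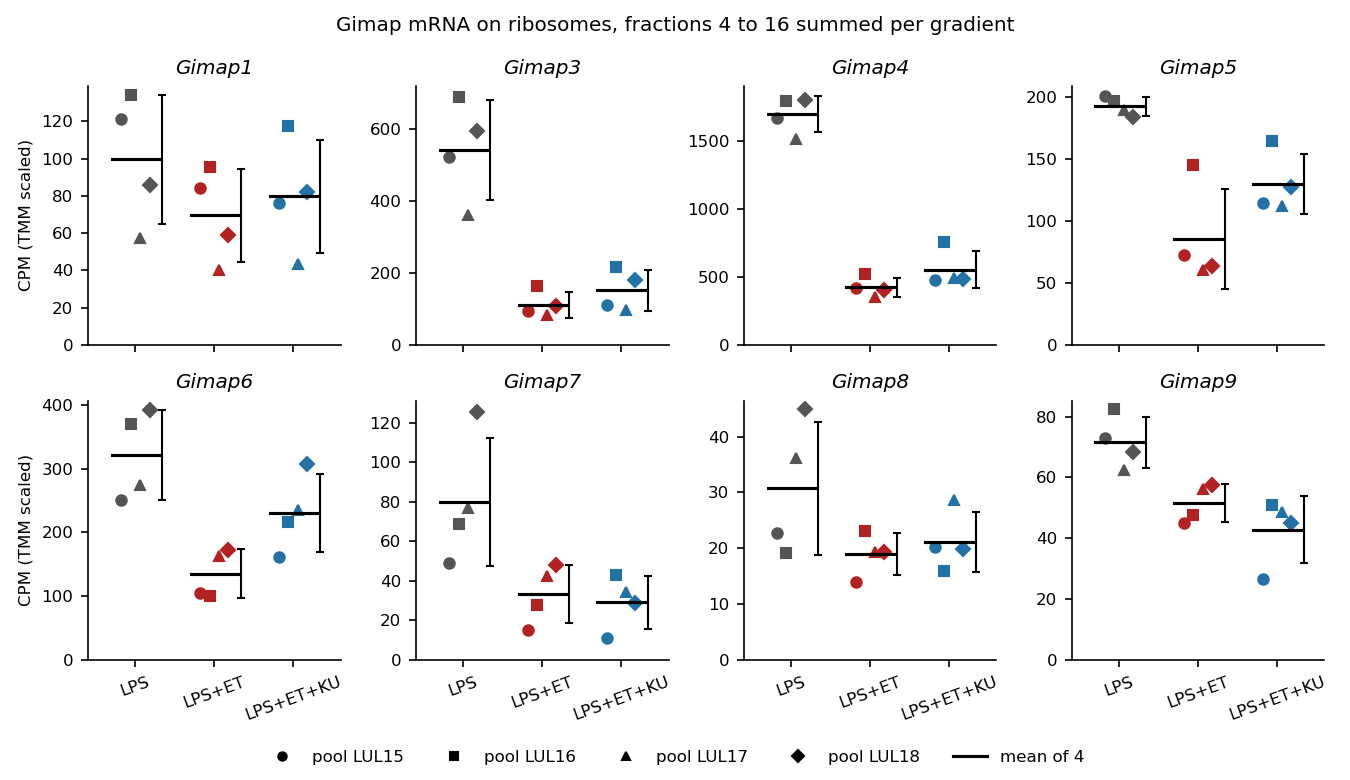
Ribosome-associated level of each Gimap gene in CPM (TMM scaled, linear axes from 0) in LPS, LPS+ET and LPS+ET+KU, with 1 point per gradient shaped by library pool, the mean as a line and the SD as a bar (n = 4). For Gimap3, Gimap4, Gimap5, Gimap7 and Gimap9 all points of both etoposide groups lie below the LPS points, and the LPS+ET square of Gimap5 at 145 CPM lies apart from the other 3.

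With the ATM inhibitor present, Gimap3 and Gimap4 still fell below their LPS levels. In LPS+ET+KU against LPS the log2 change was -1.84 ± 0.31 (SE) for Gimap3 (edgeR adjusted p = 0.00112) and -1.62 ± 0.20 for Gimap4 (edgeR adjusted p = 1.3e-04). These were the calls among the 7 members other than Gimap5, 2 of 7, where 4.42% of all genes were called lower and 6.25% higher. The log2 changes of Gimap7, -1.45 ± 0.43, and Gimap9, -0.74 ± 0.20, missed the threshold of 0.01 (edgeR adjusted p = 0.0269 and 0.0178). With the library pool as a block both passed (edgeR adjusted p = 1.8e-04 and 0.00236), which makes 4 of 7 called. Of all 12755 genes, 1691 were then called lower and 1898 higher, where 564 and 797 were without the block. Gimap6 at -0.48 ± 0.25, Gimap8 at -0.54 ± 0.28 and Gimap1 at -0.32 ± 0.34 did not pass (edgeR adjusted p = 0.184, 0.180 and 0.531). Gimap5, given without a test since the LPS gradients took part in its choice, differed by -0.57 ± 0.26. The LPS+ET+KU gradients lay wholly below LPS for 5 of 8 members, and for 12% of all genes. Pool by pool, 8 of 8 were lower in all 4, but this was not counted over all genes, so nothing is read from it. The median of the 8 was -0.66, beside 0.09 over all genes.

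Against etoposide alone, the inhibitor moved no member past the threshold without the pool as a block, and Gimap6 with it. Between these groups 0 of 7 members were called by edgeR or DESeq2, 1 of 7 had an unadjusted p under 0.05, and 0.455% of all genes were called. That one was Gimap6, with a log2 change of 0.77 ± 0.25 (SE, edgeR adjusted p = 0.133). With the pool as a block it passed at 0.76 ± 0.16 (edgeR adjusted p = 0.00673, with a range of 0.00673 to 0.332 over its alternatives). The calls over all genes then went from 58 to 811. Gimap3, Gimap4, Gimap5 and Gimap6 were each higher in all 4 pools, a pattern that was not counted over all genes. Gimap4 at 0.38 ± 0.19 and Gimap3 at 0.45 ± 0.30 did not pass (edgeR adjusted p = 0.362 and 0.513). Gimap5 differed by 0.60 ± 0.26, a description, and 6 of 8 means were higher with the inhibitor. Gimap7 at -0.19 ± 0.42 and Gimap9 at -0.27 ± 0.20 were the members with a lower mean. No member had 4 gradients wholly above or below the other 4, as 3.83% and 4.74% of all genes had. Both comparisons of LPS+ET+KU use the same 4 gradients.

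Along the gradient the Gimap rows fell into unlike profiles, and in LPS Gimap5 was the one gathered in monosomes. For these profiles each fraction library was scaled to the same total, and a gene's 13 values were set to sum to 100%. In LPS the Gimap5 profile peaked in fraction 7 in all 4 gradients, with 19.9% of the row there on average and 48.6 ± 5.37% (SD, n = 4) in fractions 4 to 7. Gimap1 and Gimap6 peaked in fraction 11 of the mean profile and Gimap3 in fraction 10, at the border of light and heavy polysomes. Gimap4, Gimap7 and Gimap9 peaked in fraction 13 and Gimap8 in fraction 14. Single fractions of the rarer genes rest on few counts: the median over the 156 libraries was 16 for Gimap8 and 23.5 for Gimap7, against 518.5 for Gimap4, so their single peaks are imprecise.

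**Figure D3:**
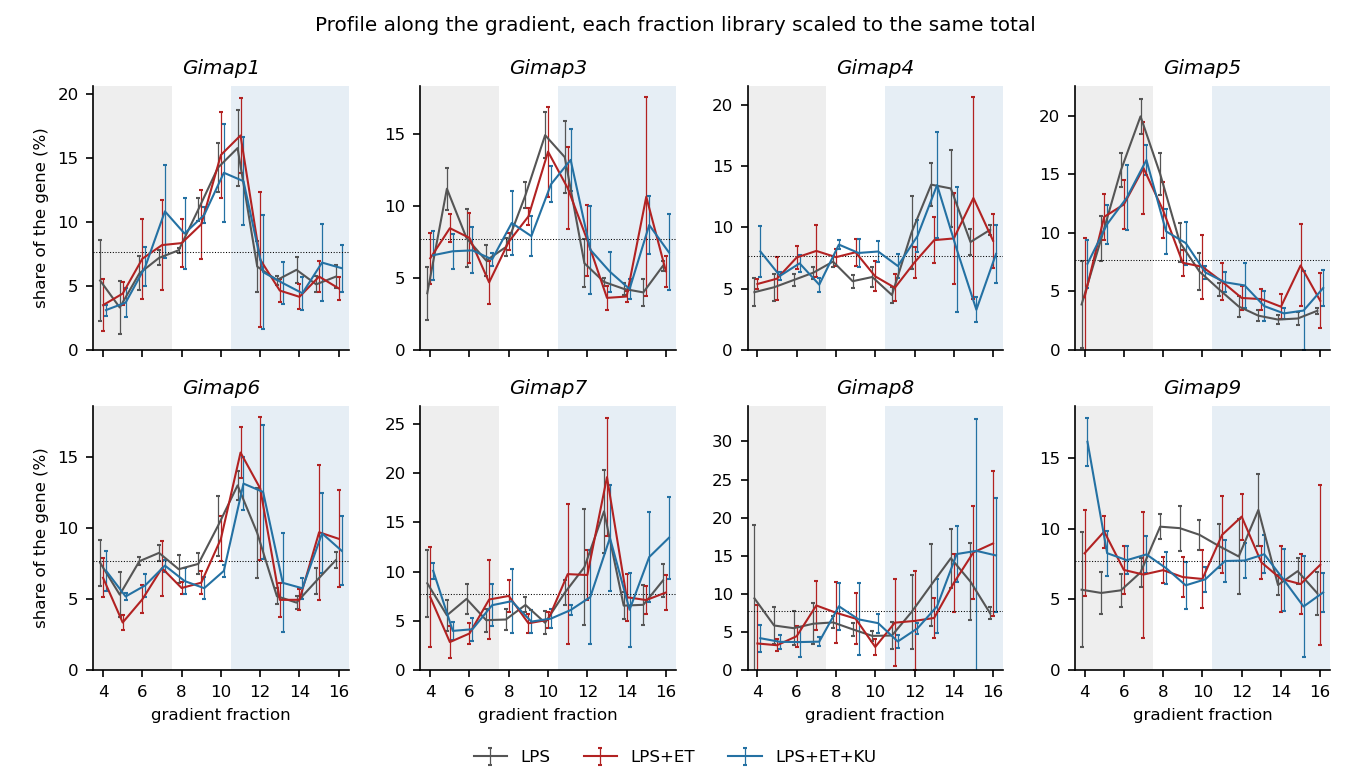
Share of each Gimap gene in gradient fractions 4 to 16 in percent, as mean and SD of 4 gradients for LPS, LPS+ET and LPS+ET+KU, with monosomes shaded grey, heavy polysomes shaded blue and an even spread dotted. Mean Gimap5 peaks in fraction 7 in all 3 treatments, Gimap1 and Gimap3 around fractions 10 and 11, and Gimap4, Gimap7 and Gimap8 in heavy polysomes in LPS.

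The position in undamaged cells was tested as heavy polysomes against monosomes within the 4 LPS gradients, a measure the choice of the family did not use. Gimap5 lay far toward monosomes, with a log2 ratio of -2.75 ± 0.12 (SE, edgeR adjusted p = 8.1e-19). Only 407 of 9659 genes (4.21%) had a lower ratio, 217 of the 9111 protein-coding ones among them. The median ratio was 0.06 over the protein-coding genes and -2.12 over 108 lincRNAs. Gimap3 (-0.89 ± 0.12, edgeR adjusted p = 1.0e-07) and Gimap6 (-0.53 ± 0.12, edgeR adjusted p = 1.8e-04) were also called lower, though both lost the call and Gimap6 its sign with library totals in place of TMM. Thus 3 of 8 were called lower and 0 higher, where 29.9% of all genes were lower and 29.5% higher. Gimap4 at 0.08 ± 0.12, Gimap7 at 0.03 ± 0.13, Gimap8 at -0.12 ± 0.17, Gimap1 at -0.19 ± 0.13 and Gimap9 at -0.20 ± 0.13 were not called (edgeR adjusted p = 0.590, 0.862, 0.533, 0.194 and 0.182).

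The zero of this ratio depends on the scaling. With library totals in place of TMM the median of all genes moved from 0.02 to 0.74 and the calls from 2888 lower and 2845 higher to 1362 lower and 5238 higher. The ratio of Gimap5 was then -2.02 and kept its call, Gimap3 at -0.16 lost it, and Gimap6 at 0.20 turned its sign without a call. Gimap1, Gimap4, Gimap7, Gimap8 and Gimap9, at 0.53, 0.81, 0.76, 0.61 and 0.53, were then called higher, for 6 of 8 calls in all. Relative to the median of all genes, Gimap5 lay at -2.77 with TMM and -2.76 without, Gimap3 at -0.91 and -0.90, and Gimap6 at -0.55 and -0.54. In LPS+ET and LPS+ET+KU the Gimap5 ratio was -2.11 ± 0.21 and -2.20 ± 0.17 (SE), given as a description. In the same order and also as a description, Gimap3 was at -1.01 ± 0.21 and -0.36 ± 0.17. Gimap7 was at 0.95 ± 0.25 and -0.14 ± 0.19, and Gimap9 at -0.59 ± 0.22 and -1.01 ± 0.17. Gimap1, Gimap4, Gimap6 and Gimap8 lay between -0.43 and 0.31 in these groups.

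**Figure D4:**
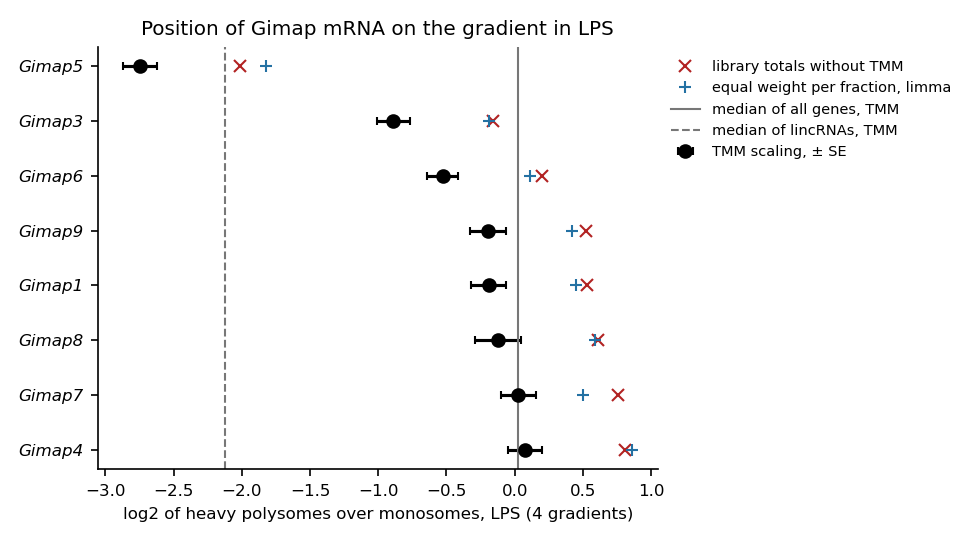
Log2 ratio of heavy polysomes over monosomes in the 4 LPS gradients for each Gimap gene, as the edgeR estimate ± SE with TMM scaling (circles), with library totals (crosses) and with equal weight per fraction (plus signs), beside the medians of all genes and of lincRNAs with TMM. Gimap5 at -2.75 lies left of the lincRNA median of -2.12, and the estimates with library totals lie further right for all 8 genes.

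The heavy polysome share, the part of a gene's scaled values in fractions 11 to 16, gave each member's position per gradient. Each fraction library was scaled to the same total, so the share is relative to other mRNAs. It does not measure how much of a gene's mRNA was in heavy polysomes. The study reports that etoposide lowered polysome assembly globally, which shares scaled this way cannot show. Gimap5 was at 22.4, 19.9, 19.8 and 19.7% in LPS, at 34.4, 30.9, 25.6 and 28.1% after etoposide and at 31, 19.6, 30.2 and 26.5% with the inhibitor. The LPS+ET gradients lay above LPS, and LPS+ET+KU overlapped both. The median share in LPS was 55.2% over 8000 genes and 22.4% over 59 lincRNAs, so that Gimap5 stood with the latter in LPS.

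Gimap6 was at 45.2, 41.4, 49.7 and 49.8% in LPS, at 59.6, 55.6, 58.3 and 54.0% after etoposide and at 55.4, 51.5, 58.7 and 56.5% with the inhibitor. Both etoposide groups lay above LPS and overlapped each other. Gimap4 went the other way, at 59.1, 59.4, 61.2 and 57.7% in LPS, 58.7, 56.1, 45.2 and 46.5% after etoposide and 48.8, 45.9, 50.7 and 50.4% with the inhibitor. Its LPS+ET+KU gradients lay below LPS, and those of LPS+ET reached into LPS. Gimap9 was at 46.6 ± 3.19, 48.0 ± 7.77 and 40 ± 2.71% (SD, n = 4) in the order LPS, etoposide and etoposide with inhibitor, and its profile with the inhibitor peaked in fraction 4 in all 4 gradients, with 40.4 ± 3.66% in monosomes against 23.7 ± 5.89% in LPS. Gimap3, at 38.2 ± 2.9, 42.2 ± 3.62 and 45.2 ± 0.98%, had LPS+ET+KU gradients above those of LPS. Gimap1 lay between means of 42.2 and 45.0%, Gimap7 between 56.7 and 61.4% and Gimap8 between 57.1 and 63.5%, with groups that overlapped.

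As counts, LPS+ET lay wholly above LPS for 2 of 8 members (4.89% of the 8000 genes) and below for 0 (8.65%). LPS+ET+KU lay above LPS for Gimap3 and Gimap6, 2 of 8 (6.78% of genes), and below for Gimap4 and Gimap9, 2 of 8 (9.47%). Between LPS+ET+KU and LPS+ET no member was separate, where 3.55% of genes lay above and 1.79% below. On the logit scale (log2), 0 of the 7 members tested passed limma in that comparison, and 0 of 7 had an unadjusted p under 0.05. Gimap5, left out of the test, differed by -0.22 ± 0.22 (SE), a description. Of all 8000 genes 0 passed and 683 had an unadjusted p under 0.05 (percent called 0). The lowest limma adjusted p was 0.603, for Gimap9 at -0.47 ± 0.23 (SE). From LPS to LPS+ET the logit of the heavy share differed by 0.71 ± 0.22 (SE) for Gimap5, 0.60 ± 0.19 for Gimap6 and -0.45 ± 0.20 for Gimap4, with a median of 0.27 over the 8, as a description. Leaving out LUL16 of LPS+ET, these were 0.69, 0.63 and -0.54, and the median 0.13.

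**Figure D5:**
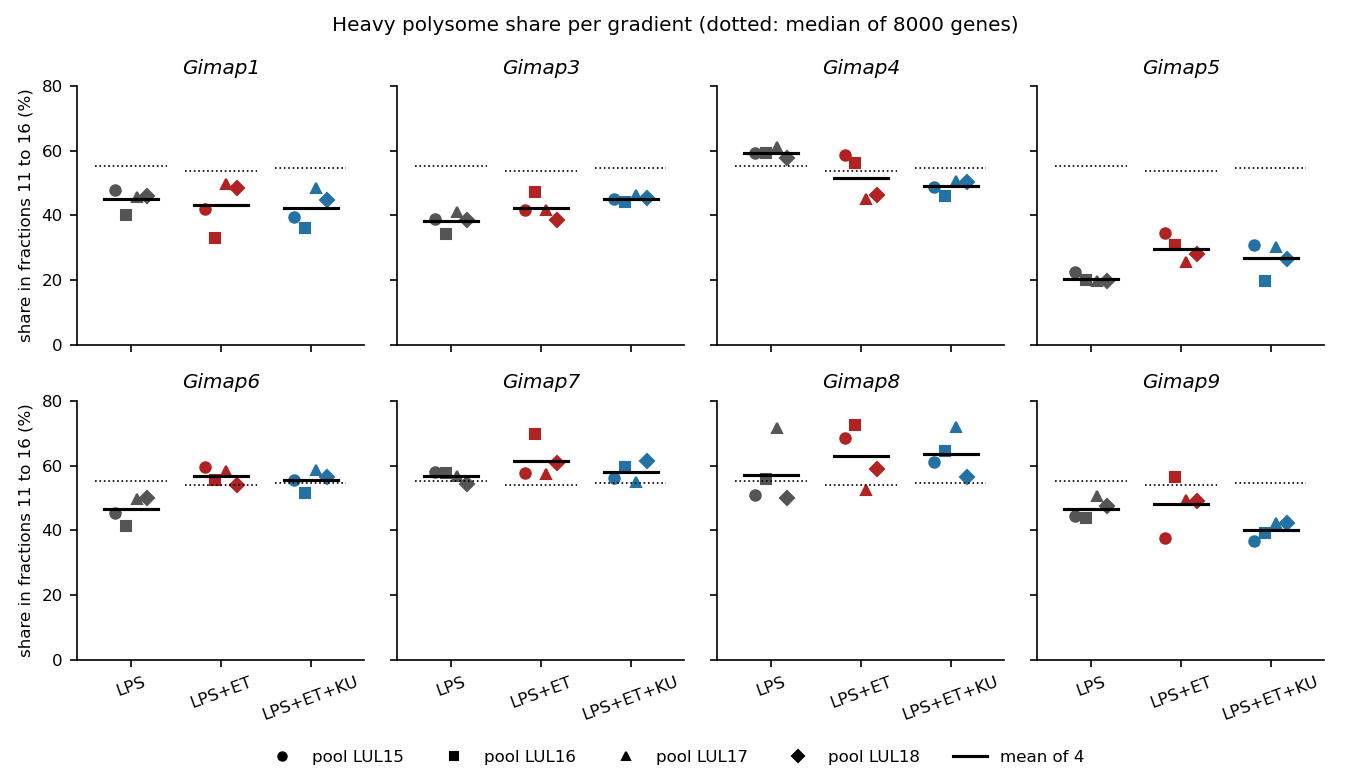
Share of each Gimap gene in heavy polysomes (fractions 11 to 16) in percent after scaling the fraction libraries, with 1 point per gradient shaped by pool, the mean of 4 as a line and the median of 8000 genes dotted. Gimap5 lies at 19.7 to 22.4% in LPS, under the dotted line at 55.2%, and Gimap6 lies higher and Gimap4 lower in LPS+ET+KU than in LPS.

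Across the 12 gradients Gimap3 and Gimap4 had the most similar levels of all member pairs (Pearson r = 0.97 of log2 CPM, and 0.79 for the deviations from the treatment means, n = 12 gradients). These gradients share treatments, pools and depth, so the correlations are descriptions. Within treatments, Gimap1, Gimap3, Gimap4 and Gimap5 varied together (r from 0.63 to 0.81 over their pairs), as did Gimap6, Gimap7 and Gimap9 (0.65 to 0.74), while Gimap5 and Gimap6 had r = -0.42. Among the other 12754 genes, the levels most like those of Gimap5 were Il16, Htra2, Arhgap25, Trim65 and Gm129 (r = 0.97, 0.96, 0.96, 0.96 and 0.95, n = 12). For the deviations from the treatment means they were Gm10288, Gm10036, Pigr, Vps16 and Sec31b (r from 0.97 to 0.98). Gimap3 and Gimap4 ranked 199 and 226 by level.

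The promoters of Gimap3 and Gimap4 are printed because these genes had the largest differences and the most similar levels. Each runs from 250 bases before to 50 after the RefSeq start (GRCm38.p6), in the direction of the gene. Capitals mark matches, on either strand, to 6 motifs. The RUNX motif was searched for as TGTGGT. The letters searched for Ikaros were TGGGAA. The FOXO motif was written in its core form GTAAACA. For ETS factors the search used CCGGAA. The TATA box was taken as the letters TATAAA. An E-box was sought in the form CAGGTG, and no motif contains another.
Gimap3, chr6:48770802-48771101, minus strand: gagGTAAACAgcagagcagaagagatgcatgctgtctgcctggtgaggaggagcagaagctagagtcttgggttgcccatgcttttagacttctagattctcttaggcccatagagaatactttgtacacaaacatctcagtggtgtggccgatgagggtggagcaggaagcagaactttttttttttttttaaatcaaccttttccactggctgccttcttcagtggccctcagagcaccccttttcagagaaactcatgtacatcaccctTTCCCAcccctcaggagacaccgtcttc
Gimap4, chr6:48684328-48684627, plus strand: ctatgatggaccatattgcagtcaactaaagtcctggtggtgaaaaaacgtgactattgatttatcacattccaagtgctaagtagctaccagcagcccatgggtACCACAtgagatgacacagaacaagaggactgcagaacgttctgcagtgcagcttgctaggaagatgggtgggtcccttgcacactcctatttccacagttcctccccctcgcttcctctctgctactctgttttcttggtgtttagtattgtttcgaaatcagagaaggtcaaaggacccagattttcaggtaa
The Gimap3 promoter held the FOXO motif once and the Ikaros motif once, as TTCCCA, and the Gimap4 promoter held the RUNX motif once, as ACCACA. Of the 8 genes, 3 (Gimap1, Gimap4 and Gimap7) held the RUNX motif, which 16.8% of 32851 promoters held. The FOXO motif was in 3.65% and the Ikaros motif in 25.6% of promoters. Gimap5 and Gimap8 held none of the 6. A match is no more than these letters in this window.

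Genes tied to the family by function changed in part. Of 9 mRNAs for proteins that Gimap members bind or act beside, in cell death and autophagy, Bcl2, which blocks apoptosis, fell by 1.95 on the log2 scale in LPS+ET (edgeR adjusted p = 2.7e-04), and Bax, which promotes it, rose by 1.2 (edgeR adjusted p = 2.6e-04). The other 7 did not pass. Of 17 mRNAs of resting lymphocytes, 5 fell and 0 rose in LPS+ET. Among them were the transcription factors Foxp1 (-1.87) and Foxo1 (-0.78) and the B cell surface receptors Fcer2a (-1.74) and Cr2 (-1.32), with a list median of -0.67 beside 0.03 over all genes. In LPS+ET+KU against LPS 4 of the 17 fell and 2, Ccr7 at 1.53 and Tsc22d3 at 1.44, rose. Of 7 mRNAs of Notch signalling and its partners, Ikzf1 (-2.36) and Dtx1 (-1.31) fell and Notch1 (1.21) rose in LPS+ET. No gene of these 3 lists was called by edgeR between both etoposide groups.

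Other genes in and around the cluster did not all follow it. Of 13 genes in the table within 250 kb of it, 9 passed the expression filter. Repin1, a zinc finger gene, rose by 1.67 on the log2 scale in LPS+ET, Gm3345, a predicted gene, fell by 2.17, and the other 7 did not pass. Gm3345, an antisense gene at chr6:48738346-48740621, lies inside the cluster and overlaps Gimap1 on the other strand. Their median was -0.45, beside -1.21 for the 8 Gimap genes, which were chosen on this contrast.

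Among markers of other cells, Pecam1 was lower in LPS+ET, as the 8 Gimap means were. This adhesion molecule, also made by B cells, fell from 65.4 to 90.2 CPM in LPS to 16.5 to 28.5 CPM in LPS+ET. With the inhibitor Pecam1 was at 37.5 to 52.3 CPM. Its log2 change was then -0.84 from LPS (edgeR adjusted p = 0.00756) and 0.98 from LPS+ET (edgeR adjusted p = 0.0243, not called). Pecam1 gave most of the endothelial list, which summed to 66.1 to 98.3 CPM in LPS, 21.3 to 36 after etoposide and 47.2 to 62.3 with the inhibitor. Endothelial cells make Gimap mRNA too. Of the other 4 endothelial markers, Cdh5, Kdr and Emcn stayed at or below 4.66, 0.805 and 0.226 CPM. Tek was at 1.19 to 7.02 CPM in LPS and at most 10.1 CPM with the inhibitor, and its log2 difference from LPS was 0.05 after etoposide and 0.68 with the inhibitor, neither called. Of 8 B cell markers, Cd22 fell (-2.12) and the other 7 did not pass in LPS+ET. The myeloid list summed to 32.5 to 87.2 CPM in LPS and 45.9 to 163 CPM in LPS+ET, with no call in that comparison, and the erythroid list to at most 0.224 CPM in any gradient. The part of other cells in the Gimap levels was not tested.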

How the data were processed

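The authors reverse transcribed the same RNA concentration from each gradient fraction, sequenced 3′ ends, removed PCR duplicates by random barcodes, aligned to GRCm38 and tallied tags at poly(A) sites per Ensembl gene. The deposited values are these raw counts, for 19600 genes in 157 libraries. The submitters' processing notes name TopHat2 2.0.12, HTSeq and DESeq2 1.6.3, without roles. Every column was matched to the labels, 79 to 1 sample and 78 to a group only, and 0 columns of other samples were left out.

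For each gradient the 13 libraries of fractions 4 to 16 were added up. Levels were tested with edgeR 4.0.16 (R 4.3.3) by the quasi-likelihood test, with TMM scaling, filterByExpr and treatment as the only term over all 12 gradients, at a Benjamini-Hochberg adjusted p under 0.01. Heavy polysomes were compared with monosomes in LPS by the same test with the gradient as a block. Heavy shares, after scaling the libraries to 1 total and adding 0.5 counts, were tested on the logit2 scale with limma 3.58.1 for genes with at least 100 counts per gradient on average. Correlations used log2 of CPM plus 0.5. The procedures were tested on simulated counts. Sequences came from GENCODE M21 and RefSeq tables (GRCm38.p6). Table positions were read as 0-based after comparison with GENCODE, and 1 was added.

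The gradients had 6404957 to 21449781 counts, and intervals cover counting error only. The labels do not say that gradients came from separate animals, so p-values measure the spread between gradients. No gradients held identical values. The pools are codes in the column names, whose meaning the labels do not give. They pair the gradients, since in all 12 pairs of the same pool the deviations from the group means correlated (r from 0.34 to 0.82, against -0.64 to 0.31 for 36 pairs of different pools).

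The genes and lists were chosen with earlier results of these data known. Named were the 8 members, the genes within 250 kb of the cluster, the listed genes a result turns on and the 5 genes most correlated with Gimap5. Alternatives were the pool as a block, DESeq2 1.42.0, library totals without TMM, no filter and equal weight per fraction. Others were different class borders, counts as deposited, leaving out each gradient and, for heavy shares, a lower minimum of 20 counts on average. Fraction 17 entered no comparison. Values of some listed genes are not reported here.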

Additional observations from a re-analysis of the deposited data

Results flagged for a closer look

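In 48 sets of 4 gradients checked for a value far from the other 3, 3 were found, and chance alone gives about 1 in 20. Gimap5 in LPS+ET had 145 CPM in pool LUL16 against 60.7 to 72.8 CPM in the others. Gimap4 in LPS+ET+KU had 758 CPM in pool LUL16 against 476 to 492 CPM. The scaled heavy share of Gimap5 in LPS was 22.4% in pool LUL15 against 19.7 to 19.9%.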

How the results depend on the processing

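Gimap5 stayed lower in heavy polysomes than in monosomes of LPS, with its call, under all 9 alternatives, and Gimap3 and Gimap4 kept their calls in LPS+ET+KU against LPS under all 15. Counts of members called moved as follows, and where no cause is given the cause was not tested. With the pool as a replicate block, 1 of 7 was called between LPS+ET+KU and LPS+ET and 4 of 7 between LPS+ET+KU and LPS, as with DESeq2 for the latter. For LPS+ET against LPS, the contrast that chose the family, the block put 6 of 8 members under the threshold, where 4 were without it. Gimap1 and Gimap7 were added, and this is a description from which nothing is read. Over all genes the block raised the calls from 1618, 58 and 1361 to 3403, 811 and 3589 for LPS+ET against LPS, LPS+ET+KU against LPS+ET and LPS+ET+KU against LPS. DESeq2 gave 412 and 2263 for the last pair, and equal weight per fraction 1059, 13 and 813 for the 3. Without the block, Gimap6 lost its heavy polysome call (edgeR adjusted p = 0.0421) and Gimap7 was at -0.0071.

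For heavy polysomes against monosomes, library totals without TMM gave 6 calls and turned Gimap1, Gimap6, Gimap8 and Gimap9 to 0.53, 0.20, 0.61 and 0.53. Equal weight turned the same 4 to 0.45, 0.11, 0.59 and 0.42, with 759 lower and 3382 higher calls over all genes, and no filter turned Gimap1, Gimap8 and Gimap9 to 0.086, 0.16 and 0.078. Gimap3 lost its call with library totals and with equal weight (-0.16 and -0.19), Gimap6 lost it under these and with no filter (-0.25), and Gimap4 was called higher in all 3 (0.81, 0.86 and 0.36). Equal weight also moved the level change of LPS+ET from LPS to -1.77, -0.34 and -0.24 for Gimap4, Gimap8 and Gimap9. Gimap7 was at 0.18 with equal weight for LPS+ET+KU against LPS+ET. The median heavy share change of LPS+ET from LPS was 0.00998 with counts as deposited, with Gimap3 at -0.19 and Gimap6 at 0.41. For the share between LPS+ET+KU and LPS+ET, counts as deposited put Gimap8 at -0.37, and fractions 12 to 16 put Gimap1, Gimap6 and Gimap7 at 0.20, 0.049 and 0.014.

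Leaving out 1 gradient, signs turned in these ranges: for the level in LPS+ET+KU against LPS+ET, Gimap1 ran from -0.047 to 0.41, Gimap7 from -0.42 to 0.094 and Gimap8 from -0.014 to 0.29. For its heavy share, Gimap1 ran from -0.26 to 0.071 and Gimap8 from -0.19 to 0.22. Gimap7 ran from -0.049 to 0.14 in heavy polysomes against monosomes. None of these was called. Without LUL16 of LPS+ET the median heavy share change from LPS was 0.13 against 0.27. Counts of members called in the tested comparisons did not move when 1 gradient was left out. Fractions of Gimap7 and Gimap8 often held under 10 counts (39 and 45 of 156 libraries), which limits their profiles.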

Other observations

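The single library of fraction 17, from LPS of pool LUL16, held 777 counts. Of these 3 fell in Gimap genes (2 in Gimap4 and 1 in Gimap6), a share of 0.386% with an exact Clopper-Pearson 95% interval of 0.0797 to 1.12%.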
